A study of Mus musculus with 6 samples.

Results

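The genes described here build and steer the transcription machinery: RNA polymerases I, II and III, the general transcription factors, Mediator, the elongation factors and Integrator. Members were chosen by gene symbol alone (Polr1 to Polr3, Med, Taf, Gtf2, Gtf3, Tbp, Supt, Ell, Aff1, Aff4, Nelf, Ints, Paf1, Ctr9, Tcea and Ccnt), which gave 120 of the 11180 genes named in the deposited table, with 140 of its 52957 regions. For each gene the region whose centre lay within 1000 bp of a start site and whose mean over the 6 libraries was highest stands for the promoter. Such a region existed for 117 genes, and all 117 passed the minimum mean of 10 used for testing. The remaining 3, Ccnt1, Ell2 and Tcea3, held only regions farther away. Members such as Ints11, Taf6, Taf7 and Polr2f were not analysed here.

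The assay was ATAC-seq, where Tn5 transposase cuts open DNA and tags the ends, in NIH3T3 cells, an immortal mouse fibroblast line. All 6 libraries came from stable lines with a T3H48 hammerhead ribozyme, a self-cleaving RNA, knocked into intron 3 of Actg1, which encodes a cytoplasmic actin. In 3 libraries the ribozyme was active and in 3 it was inactive, and the study asks whether destabilising an RNA changes transcription of other genes. Whether a group's libraries are separate cultures, or come from 1 clone, is not stated in the labels. The p-values therefore measure only the spread between these libraries, and ribozyme activity and line identity cannot be told apart. Values are normalised reads per region on mm39. Differences are log2 fold changes of active against inactive on the log2(value + 1) scale, tested by limma over 51253 regions, and a region was called at an adjusted p under 0.05.

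RNA polymerase II makes messenger RNA, polymerase I makes the large ribosomal RNA, and polymerase III makes transfer RNA and 5S ribosomal RNA. Polymerase II starts after TFIID, which contains the TATA-binding protein Tbp and its associated Taf proteins, has bound a promoter together with TFIIA, TFIIB, TFIIE, TFIIF and TFIIH. Mediator passes signals from activators to the polymerase, and its kinase module restrains that contact. Shortly after the start the polymerase is held by the NELF complex and Supt5, and it is released by the kinase P-TEFb, whose cyclin is Ccnt1 or Ccnt2. Integrator cleaves the nascent RNA of held polymerases and of small nuclear RNA genes.

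Promoter sequences from RefSeq (GRCm38.p6) matched 92 of the 117 members by symbol (78.6%). Because fewer than 80% matched, a check of base composition or motifs over the whole set is void and none is given. The stretches below are the 200 bases before the start site, 5′ to 3′ on the strand of the gene, for members on which the results turn. Tbp, Polr2a, Polr2e and Gtf3c6 are shown because they fell also against their surroundings. Gtf2ird1 and Gtf2i are shown as neighbours with opposite changes, Med17 and Taf1d as neighbours with the 2 largest falls, and Gtf3a and Polr2b as examples of members that rose.
Tbp: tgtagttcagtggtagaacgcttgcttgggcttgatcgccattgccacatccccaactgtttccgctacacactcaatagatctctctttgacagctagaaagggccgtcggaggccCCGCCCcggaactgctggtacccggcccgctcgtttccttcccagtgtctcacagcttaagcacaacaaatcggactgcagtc
Polr2a: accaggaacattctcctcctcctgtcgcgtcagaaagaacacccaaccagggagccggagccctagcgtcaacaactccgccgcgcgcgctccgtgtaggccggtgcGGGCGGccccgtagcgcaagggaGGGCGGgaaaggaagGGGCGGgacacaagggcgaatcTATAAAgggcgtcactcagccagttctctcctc
Polr2e: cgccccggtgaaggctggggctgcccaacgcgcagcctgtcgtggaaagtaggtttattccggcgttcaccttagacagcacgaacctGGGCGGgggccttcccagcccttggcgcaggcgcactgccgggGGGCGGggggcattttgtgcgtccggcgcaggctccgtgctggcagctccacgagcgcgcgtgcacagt
Gtf3c6: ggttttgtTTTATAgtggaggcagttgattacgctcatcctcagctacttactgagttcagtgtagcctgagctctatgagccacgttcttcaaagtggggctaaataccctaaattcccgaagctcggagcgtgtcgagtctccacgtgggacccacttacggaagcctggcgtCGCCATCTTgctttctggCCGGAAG
Gtf2ird1: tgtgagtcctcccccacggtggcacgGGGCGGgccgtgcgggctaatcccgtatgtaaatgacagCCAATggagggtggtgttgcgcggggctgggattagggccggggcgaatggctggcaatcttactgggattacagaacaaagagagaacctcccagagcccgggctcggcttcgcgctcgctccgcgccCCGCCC
Gtf2i: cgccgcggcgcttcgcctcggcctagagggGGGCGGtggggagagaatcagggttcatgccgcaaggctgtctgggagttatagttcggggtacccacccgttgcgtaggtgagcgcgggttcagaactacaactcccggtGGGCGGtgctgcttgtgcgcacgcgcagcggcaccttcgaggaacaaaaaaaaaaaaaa
Med17: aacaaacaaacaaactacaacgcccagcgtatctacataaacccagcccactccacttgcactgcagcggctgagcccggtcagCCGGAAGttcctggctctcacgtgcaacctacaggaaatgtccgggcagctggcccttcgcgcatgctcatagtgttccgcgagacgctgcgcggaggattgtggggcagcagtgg
Taf1d: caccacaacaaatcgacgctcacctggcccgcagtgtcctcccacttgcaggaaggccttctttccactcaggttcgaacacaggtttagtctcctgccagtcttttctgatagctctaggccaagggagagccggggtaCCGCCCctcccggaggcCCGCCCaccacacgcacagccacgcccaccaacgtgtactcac
Gtf3a: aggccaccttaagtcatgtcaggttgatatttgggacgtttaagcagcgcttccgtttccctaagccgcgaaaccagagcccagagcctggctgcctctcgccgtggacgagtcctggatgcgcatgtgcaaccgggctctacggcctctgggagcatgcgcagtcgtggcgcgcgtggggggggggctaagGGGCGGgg
Polr2b: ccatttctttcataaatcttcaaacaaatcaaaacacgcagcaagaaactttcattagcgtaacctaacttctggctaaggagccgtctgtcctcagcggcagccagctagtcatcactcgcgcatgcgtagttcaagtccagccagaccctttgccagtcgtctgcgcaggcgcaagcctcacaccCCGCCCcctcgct
Capitals mark every match, on either strand, to 8 motifs. The letters of the TATA box were TATAAA. Those of the GC box were GGGCGG. Those of the ETS factors were CCGGAAG. The CCAAT box was searched by its name. YY1 was searched as AAGATGGCG. The octamer was ATTTGCAT. AP-1 was TGANTCA, and NRF1 is given by name alone. None of these motifs overlapped in the stretches shown. A GC box was found in 8 of these 10 stretches, against 31.3% of 27025 RefSeq promoters searched over the same 200 bases. Because the 10 were picked by their changes, these shares do not compare the members with other promoters. Polr2a was the one with a TATA box on the gene's own strand, from -33 to -28, below 3 GC boxes. A match to TATAAA on either strand occurred in 10.6% of promoters. The Gtf3c6 stretch ended in an ETS match (6.47% of promoters) shortly after a YY1 match from -25 to -17 (0.496% of promoters), and its only TATAAA match lay at -192 on the opposite strand. Med17 had an ETS match from -116 to -110 and no GC box. Gtf2ird1 had a CCAAT box (30.1% of promoters) besides 2 GC boxes. On GRCm38.p6 the printed stretches were chr17:15499688-15499887 (+ strand) for Tbp, chr11:69758634-69758833 (- strand) for Polr2a, chr10:80039660-80039859 (- strand) for Polr2e and chr10:40257713-40257912 (- strand) for Gtf3c6, the outermost of 2 listed start sites. Those of Gtf2ird1 and Gtf2i were chr5:134456717-134456916 and chr5:134314761-134314960 (both - strand). Those of Med17 and Taf1d were chr9:15279907-15280106 (- strand) and chr9:15306014-15306213 (+ strand), and those of Gtf3a and Polr2b were chr5:146948457-146948656 and chr5:77310284-77310483 (both + strand). These positions are on another build than the regions of the table and were not compared with them. The matches are letters in a window and say nothing of binding.

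Promoters of the transcription machinery were more often less accessible in the active line than more accessible, and their changes were small. Of 117 promoter regions, 55 (47%) fell, 16 (13.7%) rose and 46 passed in neither direction (limma at an adjusted p under 0.05). Over the promoter regions of all 9416 named genes tested in the same way, 37.7% fell and 21.2% rose, 58.9% in all. The median log2 fold change was -0.16 over the members and -0.11 over all these promoters. No member changed 2-fold, whereas 4.86% of all promoters were called with at least that change. A called change of at least 0.5 on the log2 scale was seen in 10 members (8.55%) and in 16.4% of all promoters. The active libraries lay wholly below the inactive ones in 56 members and wholly above in 18, while for all promoters these shares were 39.3% and 21.9%. Summed over the 117 regions, the active libraries held 34970, 35249 and 34054 normalised reads and the inactive ones 37079, 37129 and 38003. The log2 ratio of the mean sums was -0.11.

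**Figure D1:**
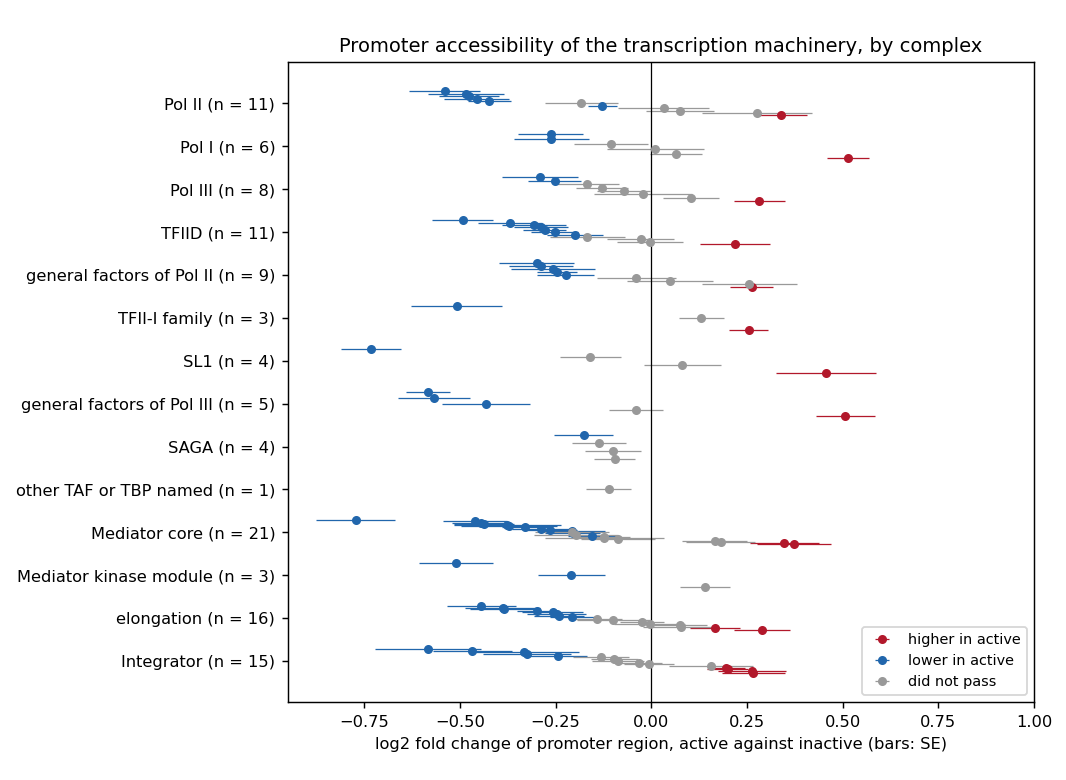
Log2 fold change of the promoter region of each of the 117 members (x axis, active against inactive, bars are standard errors), 1 point per gene in rows by complex, coloured by the limma call. Most rows have more blue points (lower in active) on the left than red points (higher), and all points lie between -0.77 and 0.52.

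The members were all open in both lines. Their mean level over the 6 libraries ran from 58.5 normalised reads at Med27 to 1798 at Polr2h, with a median of 243.8 against 254.5 for all promoters. The regions were 357 to 2240 bp wide (median 853, all promoters 893). Their centres lay 3 to 748 bp from a start site (median 91, all promoters 137). The annotated start of the gene lay inside the region in 114 of 117 members (97.4%) and in 91.6% of all promoters. Below, the most and least accessible member of a complex are those with the most and fewest normalised reads per region, which also depend on region width.

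The counts by complex below are to be read beside all promoters, of which 37.7% fell and 21.2% rose. Of the 11 genes of polymerase II, 6 fell (54.5%), 1 rose (9.09%) and 4 did not pass. Polr2a, the largest subunit, which carries the catalytic centre and the long C-terminal tail, lies on chromosome 11, 69648968 to 69650486. It held 488, 534 and 478 normalised reads in the active libraries and 680, 661 and 669 in the inactive ones. All 3 active libraries were below the inactive ones (-0.42 on the log2 scale, SE 0.057, limma adjusted p = 2.91e-08). Polr2e, a subunit shared by all 3 polymerases, held 144, 138 and 135 normalised reads in the active libraries and 189, 207 and 212 in the inactive ones. That made it 1.46-fold lower in the active line, again without overlap (-0.54 on the log2 scale, SE 0.093, limma adjusted p = 4.16e-06), the largest fall of the complex. Polr2m (Gdown1), which limits the access of initiation factors to the polymerase, fell from 177 ± 8.51 to 127 ± 10.2 (SD, n = 3 each). Polr2d, the partner of Polr2g in the stalk, was steady among active libraries at 215, 216 and 217 and higher in the inactive ones at 281, 310 and 313 (-0.48 on the log2 scale, SE 0.078, limma adjusted p = 1.44e-06). Polr2i, a small subunit that takes part in RNA cleavage and proofreading, held 168, 193 and 193 against 245, 266 and 249.

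Polr2b, the second largest subunit and the other wall of the catalytic cleft, went the other way. It held 461, 461 and 396 normalised reads in the active libraries and 350, 333 and 356 in the inactive ones on chromosome 5, 77457395 to 77458570, with no overlap (0.34 on the log2 scale, SE 0.068, limma adjusted p = 4.62e-05). Set against the other regions in its 10 Mb window, which had a median of 0.47, Polr2b was at -0.12 and lost its call (limma adjusted p = 0.148). Its direction in that fit is therefore not settled, whereas Polr2a was still called lower (-0.18). Polr2h, a shared subunit, was the most accessible promoter of all members with 1731, 1700 and 1722 in the active and 1876, 1790 and 1968 in the inactive libraries. Its fall was small (-0.13 on the log2 scale, SE 0.037, limma adjusted p = 0.00303), and it lost its call without inactive replicate 3 (-0.09, limma adjusted p = 0.0595). The least accessible was Polr2k, another shared subunit, at 76, 92 and 70 against 61, 70 and 64, where the groups overlapped (limma adjusted p = 0.0913). It was called higher without active replicate 3 (0.36, limma adjusted p = 0.0468). Polr2g stood at -0.18, Polr2c at 0.032 and Polr2j at 0.074, and these did not pass either.

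TFIID fell in 7 of its 11 measured genes (63.6%) and rose in 1 (9.09%), with a median log2 fold change of -0.25. Tbp, which bends promoter DNA and serves all 3 polymerases, held 235, 207 and 200 normalised reads in the active libraries and 285, 304 and 314 in the inactive ones on chromosome 17, 15719783 to 15720530. The groups did not overlap, and the level was 1.41-fold lower in the active line (-0.49 on the log2 scale, SE 0.080, limma adjusted p = 1.48e-06). Taf1, the largest subunit and scaffold, held 382, 350 and 315 against 408, 456 and 413 (-0.29 on the log2 scale, SE 0.071, limma adjusted p = 0.000562). Its call was lost in limma without trend or robust settings (limma adjusted p = 0.0609). Taf8, a histone-fold subunit, was the most accessible at 522, 516 and 488 against 618, 605 and 628, -0.28 on the log2 scale.

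Other subunits of TFIID that fell were Taf5 (-0.37), Taf13 (-0.31), Taf4b (-0.25) and Taf4 (-0.20), the last with overlapping libraries. Taf2, which contacts the initiator element at the start site, was the 1 that rose, from 164 ± 3.06 to 191 ± 14.5 (0.22 on the log2 scale, SE 0.092, limma adjusted p = 0.0374). That call was lost on leaving out any library but active replicate 2, with log2 fold changes from 0.16 without active replicate 1 to 0.23 without inactive replicate 1. Taf3, which reads a histone mark of active promoters, was the least accessible and did not pass (-0.17, limma adjusted p = 0.136), nor did Taf10 (-0.028) and Taf12 (-0.003).

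Among the 9 further general factors of polymerase II, 5 fell (55.6%) and 1 rose (11.1%). Gtf2b, which encodes TFIIB, the bridge from Tbp to the polymerase, held 204, 203 and 243 normalised reads in the active libraries and 263, 256 and 273 in the inactive ones, with no overlap (-0.29 on the log2 scale, SE 0.083, limma adjusted p = 0.00286). This call was lost in limma without trend or robust settings (limma adjusted p = 0.0555). Gtf2e2, a TFIIE subunit, was the most accessible and fell from 744 ± 24.7 to 628 ± 29.2 (-0.25 on the log2 scale, SE 0.053, limma adjusted p = 0.000119), and its partner Gtf2e1 fell too (-0.22). Of TFIIA, the factor that steadies Tbp on DNA, Gtf2a1 rose and Gtf2a2 fell. Gtf2a1 held 573, 597 and 605 in the active and 494, 502 and 484 in the inactive libraries (0.26 on the log2 scale, SE 0.057, limma adjusted p = 0.000126), and Gtf2a2 stood at -0.26 with overlapping libraries. Of TFIIH, the helicase and kinase complex, Gtf2h4 fell (-0.30), while Gtf2h2, the least accessible of these factors at 107, 94 and 95 against 80, 82 and 85, did not pass (limma adjusted p = 0.0727).

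The 3 genes of the TFII-I family, which bind initiator elements and are not part of the basal machinery, lie side by side on chromosome 5 and differed in direction. Gtf2ird1 (chromosome 5, 134484926 to 134485901) held 82, 85 and 82 normalised reads in the active libraries and 121, 109 and 126 in the inactive ones, a fall without overlap (-0.51 on the log2 scale, SE 0.12, limma adjusted p = 0.000335). Gtf2i, 141 kb away, held 774, 809 and 768 normalised reads in the active libraries and 684, 625 and 663 in the inactive ones and rose (0.25 on the log2 scale, SE 0.052, limma adjusted p = 5.63e-05). Gtf2ird2, 128 kb on the other side of Gtf2i, was at 521, 544 and 511 against 470, 484 and 485, which did not pass (limma adjusted p = 0.0513). The log2 ratio of Gtf2ird1 to Gtf2i was -3.22, -3.24 and -3.21 in the active and -2.49, -2.51 and -2.39 in the inactive libraries. The exact two-sided permutation test gave p = 0.1 (0.3 after adjustment over 12 pairs), and 0.1 is the smallest p that 3 against 3 allows.

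**Figure D2:**
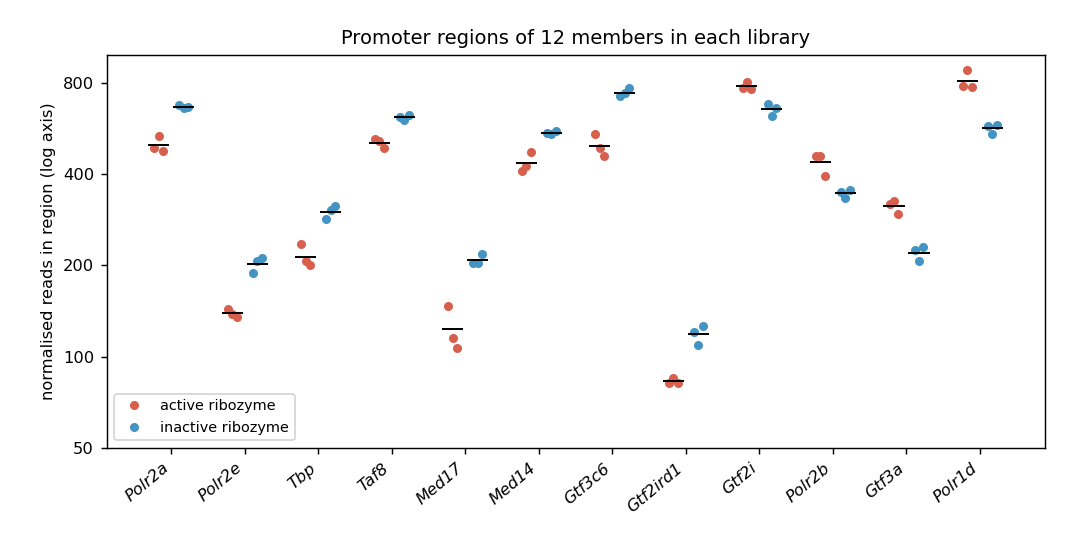
Normalised reads in the promoter region of 12 members (y axis, logarithmic), 1 point per library, for the active (red) and inactive (blue) lines, with black bars at group means (n = 3 each). Groups do not overlap for any of the 12, with the active libraries lower at 8 genes from Polr2a to Gtf2ird1 and higher at Gtf2i, Polr2b, Gtf3a and Polr1d.

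Core Mediator fell in 12 of 21 genes (57.1%) and rose in 2 (9.52%), with a median of -0.21. Med17, a central subunit of the head, showed the largest fall of all members, with 147, 115 and 107 normalised reads in the active libraries and 204, 204 and 219 in the inactive ones on chromosome 9, 15190764 to 15191639. The level was 1.7-fold lower in the active line (-0.77 on the log2 scale, SE 0.10, limma adjusted p = 2.93e-08). Med15, a tail subunit that many activators bind, held 178, 196 and 191 against 246, 279 and 254 (-0.46 on the log2 scale, SE 0.084, limma adjusted p = 9.45e-06). This Med15 region was centred 316 bp from the start site and did not hold the annotated start. A second Med15 region at 947 bp did not pass (-0.19 on the log2 scale, limma adjusted p = 0.148). Med1, through which nuclear receptors recruit the complex, held 217, 221 and 224 against 306, 308 and 288 (-0.44 on the log2 scale, SE 0.077, limma adjusted p = 3.89e-06). Med23, another activator target in the tail, fell from 287 ± 4.36 to 212 ± 12.1. In Med14, the backbone that joins the modules, the active libraries were at 411, 426 and 475 and the inactive at 546, 544 and 556 (-0.33 on the log2 scale, SE 0.062, limma adjusted p = 1.47e-05). None of the promoter regions of these 5 genes overlapped between the groups.

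Med24, Med25, Med16, Med22, Med7, Med11 and Med19 fell as well, by log2 fold changes from -0.38 to -0.15, with overlapping libraries at Med25 and Med19. Med19 was the most accessible core subunit at 590, 504 and 510 against 556, 598 and 630, and it lost its call without active replicate 2 or 3 or inactive replicate 2 or 3 (-0.11 without inactive replicate 3). Both members that rose were Med6, a conserved head subunit, at 200, 164 and 204 against 147, 142 and 147 (0.37 on the log2 scale, SE 0.097, limma adjusted p = 0.00113), and Med28 (0.35), whose libraries overlapped. Med27 had the lowest level of all members, 63, 53 and 52 against 55, 62 and 66, and did not pass (limma adjusted p = 0.507).

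The kinase module was represented by Med13, Med12 and Med13l. Med13, which tethers the module to the core, held 133, 138 and 138 normalised reads in the active libraries and 176, 209 and 200 in the inactive ones (-0.51 on the log2 scale, SE 0.096, limma adjusted p = 1.64e-05). Med12, which activates the kinase, fell from 217 ± 11.3 to 188 ± 11.6 (-0.21 on the log2 scale, SE 0.087, limma adjusted p = 0.0358). The Med12 call was lost without active replicate 1 or 3 or inactive replicate 2 or 3 (-0.18 to -0.19). Med13l, a paralogue of Med13 and the most accessible of the 3, stood at 433, 507 and 529 against 454, 429 and 445 and did not pass (0.14, limma adjusted p = 0.0628). It was called higher without active replicate 1 (0.23, limma adjusted p = 0.00313).

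Elongation factors fell in 8 of 16 genes with a promoter region (50%) and rose in 2 (12.5%). Supt5, the subunit of DSIF that rides on the polymerase through pausing and elongation, held 126, 127 and 137 normalised reads in the active libraries and 169, 170 and 172 in the inactive ones. The groups did not overlap (-0.39 on the log2 scale, SE 0.098, limma adjusted p = 0.000758), and its partner Supt4a fell too (-0.26). Supt6, a histone chaperone that travels with the polymerase, fell from 231 ± 25.1 to 169 ± 7.81 (-0.44 on the log2 scale, SE 0.090, limma adjusted p = 5.39e-05). Of the 4 NELF genes, Nelfb (-0.39) and Nelfe fell, while Nelfa (0.076) and Nelfcd (-0.099) did not pass. Nelfe, the RNA-binding subunit, was at 480, 528 and 500 against 560, 584 and 596 (-0.21 on the log2 scale, SE 0.058, limma adjusted p = 0.00226).

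In the super elongation complex, which brings P-TEFb to held polymerases, Ell and Aff4 fell and Aff1 rose. Ell was the most accessible elongation factor, with 764, 694 and 667 normalised reads in the active libraries and 879, 848 and 884 in the inactive ones (-0.30 on the log2 scale, SE 0.052, limma adjusted p = 4.31e-06). The scaffold Aff4 held 353, 371 and 363 against 446, 410 and 431 (-0.24 on the log2 scale, SE 0.065, limma adjusted p = 0.00143). Its paralogue Aff1 held 407, 444 and 419 against 371, 373 and 387 (0.17 on the log2 scale, SE 0.065, limma adjusted p = 0.025), a call lost without active replicate 2 or inactive replicate 1 or 2 (0.13 to 0.16). Paf1, of the complex that couples elongation to histone marks, held 222, 239 and 233 against 273, 274 and 277 (-0.25 on the log2 scale, SE 0.077, limma adjusted p = 0.00566), while Ctr9 of the same complex stood at -0.004 (limma adjusted p = 0.971). Supt16, a subunit of the histone chaperone FACT, rose from 263 ± 11.7 to 322 ± 4.58 (0.29 on the log2 scale, SE 0.073, limma adjusted p = 0.000764). Ccnt2, the cyclin T with a promoter region, was at 624, 544 and 584 against 587, 591 and 601 and did not pass (limma adjusted p = 0.73), and neither did the TFIIS genes Tcea1 (-0.14) and Tcea2 (0.077).

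In Integrator 5 of 15 genes fell (33.3%) and 4 rose (26.7%), near the 37.7% and 21.2% of all promoters, with a median of -0.09. Ints2 had the largest fall, with 85, 58 and 82 normalised reads in the active libraries and 98, 129 and 109 in the inactive ones (-0.58 on the log2 scale, SE 0.14, limma adjusted p = 0.000394). Ints14 held 143, 120 and 146 against 182, 217 and 169 (-0.47 on the log2 scale, SE 0.10, limma adjusted p = 0.000154), and Ints4, a scaffold of the cleavage module (-0.33), Ints5 (-0.33) and Ints12 (-0.24) fell as well, with overlapping libraries at Ints4 and Ints5. Ints5 was the least accessible at 73, 65 and 58 against 71, 84 and 93, and its call was lost without active replicate 2 or 3 or inactive replicate 2 or 3 (-0.24 without inactive replicate 3). Ints6, a subunit that links Integrator to a phosphatase, was the most accessible, with 947, 1073 and 1022 in the active and 876, 897 and 878 in the inactive libraries (0.20 on the log2 scale, SE 0.048, limma adjusted p = 0.000516). Ints13 held 784, 751 and 688 against 648, 639 and 647 (0.20 on the log2 scale, SE 0.054, limma adjusted p = 0.00157). Ints15 (0.27) and Ints1 (0.26), the largest subunit, rose too, with no overlap. The Ints15 call was lost without inactive replicate 2 (0.21, limma adjusted p = 0.0545).

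Genes of polymerase I showed 2 falls (33.3%) and 1 rise (16.7%) among 6, near the 37.7% and 21.2% of all promoters. Polr1d, a subunit shared by polymerases I and III, showed the largest rise of all members. It held 783, 883 and 777 normalised reads in the active libraries and 578, 545 and 584 in the inactive ones on chromosome 5, 147013053 to 147014715, 1.43-fold higher in the active line (0.52 on the log2 scale, SE 0.055, limma adjusted p = 1.52e-10). Polr1a, the largest subunit, held 143, 171 and 136 against 189, 167 and 182 with an overlap (-0.26 on the log2 scale, SE 0.099, limma adjusted p = 0.0218). That call was lost without active replicate 1 or 3 or inactive replicate 1 or 3 (-0.20 without active replicate 3). Polr1b, the second largest, fell without overlap (-0.26 on the log2 scale). Polr1f was the least accessible at 108, 80 and 95 against 90, 97 and 92 (limma adjusted p = 0.949).

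In SL1, the factor that places polymerase I on ribosomal DNA, Taf1d and Taf1b moved apart. Taf1d, the most accessible of its 4 genes, held 200, 187 and 218 normalised reads in the active libraries and 328, 339 and 338 in the inactive ones (-0.73 on the log2 scale, SE 0.078, limma adjusted p = 1.4e-10), the second largest fall of all members. Taf1b, the least accessible, rose from 86.3 ± 2.08 to 121 ± 25.1 (0.46 on the log2 scale, SE 0.13, limma adjusted p = 0.00254), with active libraries at 131, 92 and 139. In limma without trend or robust settings the Taf1b call was lost (limma adjusted p = 0.0564). Taf1a and Taf1c did not pass (-0.16 and 0.081).

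Of 8 polymerase III genes, Polr3gl (-0.29) and Polr3e (-0.25) fell, and 1 rose. These shares of 25% and 12.5% were below the 37.7% and 21.2% of all promoters. Polr3a, the largest subunit, was the least accessible and close to equal at 81, 85 and 87 against 89, 81 and 87 (-0.022 on the log2 scale, SE 0.13, limma adjusted p = 0.893), and Polr3d, the most accessible, did not pass (0.10, limma adjusted p = 0.221). Polr3d was called higher without active replicate 2 (0.19, limma adjusted p = 0.0163). Of the 5 general factors of polymerase III, 3 fell (60%) and 1 rose (20%), with a median of -0.43. Gtf3c6, Gtf3c5 and Gtf3c3 of TFIIIC, which reads the promoter inside transfer RNA genes, fell. Gtf3c6 (chromosome 10, 40133547 to 40135196) held 543, 489 and 461 normalised reads in the active libraries and 725, 741 and 769 in the inactive ones, 1.5-fold lower in the active line (-0.58 on the log2 scale, SE 0.058, limma adjusted p = 2.15e-11). Gtf3c5 held 139, 138 and 135 against 197, 193 and 223 (-0.57 on the log2 scale, SE 0.094, limma adjusted p = 1.97e-06), and Gtf3c3 92, 90 and 90 against 120, 126 and 122 (-0.43 on the log2 scale, SE 0.11, limma adjusted p = 0.00128). The Gtf3c5 region was centred 748 bp from the start site, the farthest of all members, and did not hold the annotated start. Gtf3a, which encodes TFIIIA for 5S RNA, rose from 221 ± 12.1 to 314 ± 16.1 (0.51 on the log2 scale, SE 0.078, limma adjusted p = 4.48e-07), and Gtf3c1 did not pass (-0.040).

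In SAGA, a coactivator that shares parts with TFIID, 1 of 4 genes fell (25%), against 37.7% of all promoters. Supt3 was the most accessible at 644, 657 and 605 against 657, 686 and 693 (limma adjusted p = 0.12). Taf5l, the least accessible, held 245, 251 and 283 against 306, 288 and 286 (-0.18 on the log2 scale, SE 0.077, limma adjusted p = 0.0441). Its call was lost with the replicate block (limma adjusted p = 0.0536) and in 5 of the 6 fits that left out a library, active replicate 3 being the exception (-0.14 with active replicate 1 left out). Taf15, an RNA-binding protein, was at 524, 518 and 472 against 541, 544 and 549 and did not pass (limma adjusted p = 0.0981).

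The changes of the members ran with those of their surroundings. For each member the median log2 fold change of the other regions in its 10 Mb window was taken. Across the 117 genes, which are not independent, share libraries and in part windows, Pearson's r with the member's own change was 0.77 and Spearman's rho 0.72. For the 9416 promoters r was 0.46 and rho 0.62. Where the surroundings had a median below 0, 50 of 76 members fell and 0 rose by limma, against 52.8% and 6.36% of 6009 promoters there. Where it was above 0, 5 of 41 members fell and 16 rose, against 11.1% and 47.3% of 3407 promoters. All 16 members that rose thus lay in raised windows. Chromosome 5 held 8 of them among its 14 members, where 62.5% of all 606 promoters rose, and chromosome 12 held 3 of 4, where 85.7% of 307 rose. On chromosome 11, which carries Actg1, 10 of 12 members fell and 0 rose, where 62.3% of 762 promoters fell.

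**Figure D3:**
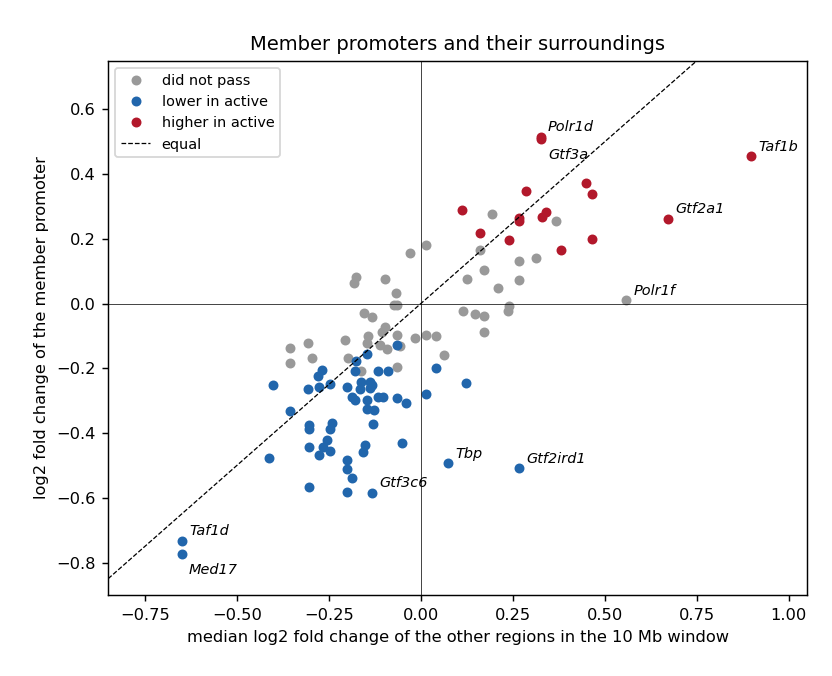
Log2 fold change of each member promoter (y axis) against the median of the other regions in its 10 Mb window (x axis), 1 point per gene (n = 117), coloured by call, with a dashed line of equal values. Points rise with the window median (r = 0.77). Among those far below the line are Tbp, Gtf2ird1, Polr1f, Taf1b and Gtf2a1, all in windows with medians above 0.

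Values centred on the 10 Mb window ask whether a promoter changed relative to its surroundings. Centred, 36 of 117 members were lower and 4 higher (limma, adjusted p under 0.05), against 24.5% and 12.1% of all promoters, 36.6% in all. Of the 55 falls 23 stayed lower, and of the 16 rises 1 stayed higher and 4 became lower. The other members called in this fit, 9 lower and 3 higher, had not passed before. By complex, 5 of 11 were lower in polymerase II, 5 of 11 in TFIID, 4 of 21 in core Mediator, 4 of 15 in Integrator and 3 of 16 in elongation. Core Mediator and elongation were thus below the 24.5% of all promoters, and Integrator was near it. The general factors had 3 of 9 lower for polymerase II and 3 of 5 for polymerase III. The TFII-I family and the kinase module had 2 of 3 each, and SL1 had 2 of 4. Polymerase III had 2 of 8, polymerase I had 1 of 6, and SAGA had 0 of 4. The 4 that were higher lay in polymerase I (2), SAGA (1) and SL1 (1). Gtf2ird1 had the largest centred fall among the members called in both fits, -0.80 in a window at 0.27 (limma adjusted p = 4.32e-07). Tbp followed with -0.56 in a window at 0.073 (limma adjusted p = 2.28e-07), and then Gtf3c6 with -0.45 in a window at -0.13. Polr2a stayed lower at -0.18 (limma adjusted p = 0.0052), Polr2e at -0.36 and Med14 at -0.21. Polr1d was the rise that stayed, at 0.17 in a window at 0.33 (limma adjusted p = 0.00881).

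Med17 and Taf1d, which had the 2 largest falls, lay in a window at -0.65 and were at -0.10 and -0.061 when centred, neither called (limma adjusted p = 0.439 and limma adjusted p = 0.523). The 4 rises that became lower were Taf1b (-0.43 in a window at 0.90), Gtf2a1 (-0.34 at 0.67), Ints13 (-0.27 at 0.47) and Aff1 (-0.25 at 0.38). Polr1f, at 0.010 before centring, was at -0.55 in a window at 0.56 (limma adjusted p = 0.000329). Ccnt2, at -0.024 before centring, was at -0.305 in a window at 0.236 (limma adjusted p = 1.6e-05). Both are among the 9 members called lower only when centred, beside 3 called higher only then. Med1, Supt5, Paf1, Nelfe, Aff4, Polr2d, Polr2h and Ints14 lost their calls when centred, with values from -0.19 to -0.025. Over the 14 other fits of the same regions and the centred one together, 17 falls and 1 rise kept their call and sign in each. Those were Polr2a, Polr2e, Polr2i, Polr2m, Tbp, Taf8, Taf13, Gtf2e2, Gtf2ird1, Med13, Med14, Med15, Med23, Ell, Ints2, Gtf3c5 and Gtf3c6, and for the rise Polr1d. These fits did not vary the choice of region. The regions of Gtf3c5 (748 bp) and Med13 (654 bp) lie beyond a distance limit of 500 bp, with which 52 members fell.

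Some members are neighbours, and 12 pairs of members that follow each other along a chromosome had promoter regions within 300 kb. Pairs with another member between them were not counted. Med17 and Taf1d, 25.5 kb apart on chromosome 9, fell alike (-0.77 and -0.73). Gtf3a and Polr1d, 127 kb apart on chromosome 5, rose alike (0.51 and 0.52), and the log2 ratio of Polr1d to Gtf3a within a library lay between 1.29 and 1.43 when active and between 1.34 and 1.39 when inactive. Ints2 and Med13, 100 kb apart on chromosome 11, both fell (-0.58 and -0.51), as did Supt5 and Paf1, 53.3 kb apart on chromosome 7. In 4 of the 12 pairs the ratio of the neighbours did not overlap between the groups: Gtf2ird1 to Gtf2i, Gtf2i to Gtf2ird2, Polr2e to Med16 and Paf1 to Supt5. Each had an exact two-sided permutation p of 0.1 (adjusted 0.3), so with 3 against 3 no pair could pass. The share of such pairs among all neighbouring promoters was not computed.

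Besides the promoter regions, 23 further regions carried a member's symbol, 5 within and 18 beyond 1000 bp of a start site. They were weaker (median level 73.7 normalised reads), and the Med24 region at 1645 bp was too low to test. Of the 22 tested, 4 rose and 5 fell, against 25.2% and 32.5% of 4401 further regions of named genes, 57.7% in all. The median log2 fold change of the 22 was -0.02. A Taf12 region at 4363 bp held 228, 210 and 209 normalised reads in the active libraries and 313, 339 and 357 in the inactive ones (-0.64 on the log2 scale, SE 0.077, limma adjusted p = 3.08e-09), beside a Taf12 promoter close to equal at 229, 251 and 199 against 214, 241 and 223. The weaker Med16 region at 408 bp (34, 16 and 27 against 55, 42 and 48) and the Aff4 region at 843 bp (41, 34 and 23 against 63, 53 and 62) fell (-0.94 and -0.88 on the log2 scale). All 3 of these kept their direction and call when centred.

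**Figure D4:**
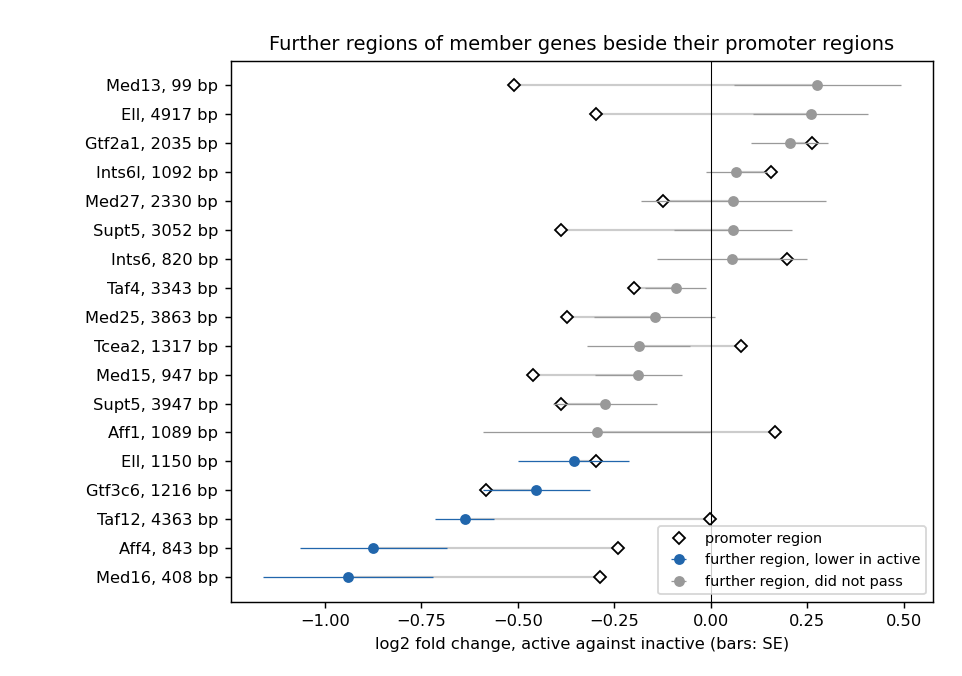
Log2 fold change (x axis, bars are standard errors) of 18 further regions of member genes (circles, coloured by call) and of the promoter region of the same gene (open diamonds), labelled by gene and distance of the further region from the start site. The widest gaps are at Med13, Med16, Taf12 and Aff4.

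Of 19 further regions with a promoter region beside them, 8 had a ratio to that promoter that did not overlap between the groups. The share over the further regions of all named genes was not computed, so this count is not a trait of the members. At Taf12 the log2 ratio was -0.01, -0.26 and 0.07 in the active and 0.55, 0.49 and 0.68 in the inactive libraries. The exact two-sided permutation test gave 0.1 for each of the 8, the smallest possible, and 0.24 after adjustment over 19. Med13 has a second region 99 bp from its start with 42, 35 and 33 against 42, 22 and 29, which did not pass (0.28 on the log2 scale, SE 0.22, limma adjusted p = 0.274). Taking the region nearest to the start would replace the Med13 fall by this value. The 3 genes without a promoter region all rose at the region they had: Ell2, which releases held polymerases, at 1171 bp (594, 638 and 618 against 473, 434 and 508, log2 fold change 0.39, 0.090 and not called when centred), Tcea3 at 2209 bp (0.41) and Ccnt1 at 3152 bp (0.16, -0.20 and called lower when centred).

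A list of 79 other gene symbols of the same machinery, not matched by those above, held 70 with a promoter region. Of these 32 (45.7%) fell and 14 (20%) rose, against 37.7% and 21.2% of all promoters, with a median of -0.14. Centred on windows, 16 of 70 were lower and 3 higher, against 24.5% and 12.1% of all promoters. Cdk19 and Cdk8 are the alternative kinases that work with Med12 and Med13. Cdk19 held 34, 30 and 31 normalised reads in the active libraries and 105, 100 and 97 in the inactive ones, 3.18-fold lower in the active line (-1.64 on the log2 scale, SE 0.15, limma adjusted p = 4.85e-12), and its cyclin Ccnc held 299, 258 and 344 against 385, 372 and 392 (-0.36 on the log2 scale, SE 0.078, limma adjusted p = 0.000128). The paralogue Cdk8 rose from 273 ± 3.79 to 310.3 ± 20.3 (0.18 on the log2 scale, SE 0.074, limma adjusted p = 0.0337), but in a window at 0.33 its centred value was -0.17 and not called. Cdk19 lies on chromosome 10, 40215239 to 40215661, close to Gtf3c6, and both stayed lower when centred (-1.51 and -0.45).

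Over all promoters 37.7% fell and 21.2% rose, and when centred 24.5% were lower and 12.1% higher. Around P-TEFb 4 of 6 listed genes fell, and 1 was lower when centred. The inhibitor Hexim1 held 261, 284 and 296 against 396, 404 and 388 (-0.50 on the log2 scale, SE 0.070, limma adjusted p = 8.61e-08) and the kinase Cdk9 511, 534 and 493 against 592, 590 and 590 (-0.20 on the log2 scale, SE 0.057, limma adjusted p = 0.00196). Centred, Hexim1 stayed lower (-0.20) and Cdk9 was at 0.13 and not called. All 3 polymerase I factors listed fell, and 1 was lower when centred, Ubtf, which coats ribosomal DNA, at 87, 76 and 96 against 145, 157 and 133 (-0.74 on the log2 scale, SE 0.12, limma adjusted p = 7.32e-07, -0.44 when centred). Polymerase III factors rose in 4 of 10 and fell in 2, and when centred 2 were higher and 1 lower. Crcp, a subunit of the enzyme, held 156, 147 and 140 against 85, 96 and 104 (0.63 on the log2 scale, SE 0.11, limma adjusted p = 5.83e-06), and Brf1, of its initiation factor TFIIIB, 863, 947 and 878 against 608, 591 and 623 (0.56 on the log2 scale, SE 0.052, limma adjusted p = 2.83e-12). Centred, Crcp stayed higher (0.34) and Brf1 was at 0.088 and not called. These named genes were chosen after their values were seen.

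The libraries summed to 6433944 to 6548535 normalised reads over all regions. The reads before scaling were estimated from how unevenly each library uses the whole numbers, which rounding after scaling leaves, at between 3710000 and 6840000 for the active line and between 7330000 and 8960000 for the inactive line, so every active library was shallower. With libraries thinned to equal depth, 47 members fell and 14 rose. As a check of the cell type, 10 of 14 fibroblast markers had a promoter region, with sums between 2867 and 3044 normalised reads for the active line and between 3469 and 3639 for the inactive line. Thy1, Pdgfra, Tcf21 and Dcn were without one. None of 4 immune and 3 neuronal markers had one, nor did 4 of 5 epithelial and 2 of 3 endothelial markers. Krt8 held 134 to 171 against 78 to 89, and the endothelial receptor gene Kdr 74 to 82 against 5 to 9. Their part in the results was not tested.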

How the data were processed

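The submitters' processing notes name these tools of the authors, with their versions: STAR 2.7.11a, DESeq2 1.36.0, Picard 3.1.1, Trimmomatic 0.39 and featureCounts, with mm39 as the build. How peaks were called, and whether reads were shifted for Tn5, is not given in the sources used here. Each deposited value is a score, taken here as the authors' read number in a region after division by a library size factor and rounding. That reading rests on near-equal library totals and on an uneven use of the whole numbers, some of which are skipped in 2 of the 6 libraries, so count tests were not used.

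The log2(value + 1) of each region was fitted with limma 3.58.1 (trend and robust settings, R 4.3.3), for regions with a mean of at least 10, with the Benjamini-Hochberg adjustment taken across every region fitted. Other steps used Python 3.11.15 with pandas 2.3.3. The fit was tested on simulated data. Named members were the 15 largest called rises and the 15 largest called falls without overlap, a fixed list of genes, the most and the least accessible member of each complex and, among members called both with and without centring, the largest centred changes (up to 3 in each direction, which gave 1 rise), and further ones are given by value. Some items that the rule names are not reported here. The members and lists were chosen with earlier results of these data known. Same-numbered libraries did not deviate together (correlations of 0.0014, -0.006 and -0.0162). Alternatives covered normalization, filter, pseudocount, region choice, replicate block and leaving out each library.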

Additional observations from a re-analysis of the deposited data

How the results depend on the processing

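Counts of member promoters that rose and fell (16 and 55) were within 1.5 times in most alternatives, with 2 exceptions. Centred on 10 Mb windows they were 4 and 36, and in limma without trend or robust settings 10 and 32. Leaving out 1 library gave 13 to 18 rises and 41 to 53 falls, the fewest without inactive replicate 3. For the other machinery genes (14 and 32) the same settings gave 3 and 16, and 8 and 19; leaving out 1 library gave 13 to 15 and 26 to 31. Further regions called lower numbered 3 with a mean of at least 50. More lower than higher calls were seen in 11 of 14 complexes, and in 7 to 10 on leaving out 1 library. The log2 ratio of the sum over all members was -0.11, with quantile normalization -0.075, and -0.12 to -0.09 on leaving out 1 library.

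Of the 57 named promoters, 13 changed sign with a call at stake when centred: Aff1 (-0.248), Gtf2a1 (-0.337), Gtf2i (-0.041), Ints1 (-0.031), Ints13 (-0.269), Ints15 (-0.081), Ints5 (0.015), Ints6 (-0.075), Med13l (-0.195), Med6 (-0.111), Polr1f (-0.551), Polr2b (-0.116) and Taf1b (-0.431). No named promoter did so in any other alternative. Of the 13, Gtf2i, Ints1, Ints15, Ints5, Ints6, Med6 and Polr2b also lost their call when centred. A further 17 lost their call when centred without a change of sign. In limma without trend or robust settings 14 lost it, and 9 did with libraries thinned, an alternative chosen after seeing the data. With the replicate block 16 rose and 54 fell, and 1 named call was lost. In limma without trend or robust settings the calls lost were Aff1, Gtf2b, Ints13, Ints5, Ints6, Med12, Med19, Nelfe, Polr1a, Polr2h, Taf1, Taf1b, Taf2 and Taf5l, and core Mediator had 6 falls in place of 12. The cause of these differences was not tested. By the estimates from whole numbers every active library was shallower, and the part of depth in the lost calls was not tested.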
